A study of Mus musculus with 2 samples.

Results

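Cycling white blood cells of the mouse lung that carried almost no Cd3 transcripts are described here. Members were selected on these measured counts: a cell counted when it held at least 3 summed UMIs (unique molecules) of Mki67, Top2a and Birc5 and at most 1 summed UMI of Cd3d, Cd3e and Cd3g. Members numbered 401 of 14179 cells, or 2.83%, with 221 of 8066 cells in library 1 (2.74%, 95% interval 2.39 to 3.12%) and 180 of 6113 in library 2 (2.94%, interval 2.54 to 3.40%). They were then divided by Ncr1 and Klrb1c, receptor genes of natural killer (NK) cells, and by Csf1r, the receptor of the macrophage growth factor. NK cells held at least 2 UMIs of Ncr1 and Klrb1c and none of Csf1r, and Csf1r cells held at least 1 Csf1r UMI and at most 1 of Ncr1 and Klrb1c.

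The labels give 1 Siah1a/2 KO sample and 1 WT sample. Siah1a and Siah2 encode ubiquitin ligases. Both samples were live CD45+ cells sorted from digested lungs 7 weeks after the first dose of urethane, a carcinogen that gives mice lung tumours, and no untreated lung is among them. The age, the strain, the cells in which Siah1a and Siah2 were deleted and the number of mice per sample are left out of the labels and file headers used here. The matrix pools 2 droplet libraries whose barcodes carry a suffix but no genotype, so the libraries are called library 1 and library 2 and no genotype is compared. With 1 library of each kind nothing could be tested, and every interval given is an exact 95% interval that covers counting error only, not the spread between cells or animals.

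A dividing cell first licenses its replication origins with the MCM helicase, copies its DNA in S phase with nucleotides made by ribonucleotide reductase and thymidylate synthase, and then condenses its chromosomes and separates them on a spindle. E2F factors are known to drive S phase genes, and the DREAM and MuvB complexes are known to restrain or drive genes of mitosis. NK cells are innate lymphocytes that kill with perforin and granzymes and divide in response to cytokines such as IL-15. Lung macrophages can be replenished by division in place or by monocytes from the blood.

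Library 1 held 86227008 UMIs in 8522 barcodes and library 2 held 59459790 UMIs in 6479 barcodes, and 456 and 366 barcodes were left out for having under 500 genes or over 10% mitochondrial UMIs. Kept cells had a median of 8661 UMIs in library 1 and 7875 in library 2. Cycling cells were deeper than others: cycling NK cells had a median of 18834 and 16376 UMIs, against 8807 and 7459 in NK cells with none of the cycle UMIs. The libraries shared 11 barcode sequences, which 2 members carry. Members with more than 3 times the median depth of their library numbered 41 in library 1 and 44 in library 2, and the part of doublets among them was not tested.

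The membership threshold cut through a continuous range. Cells with at most 1 Cd3 UMI that held exactly 3 cycle UMIs, just inside, numbered 50 in library 1 and 29 in library 2, and those with exactly 2, just outside, numbered 144 and 99. The 12 origin licensing genes summed to 672 and 750 CPM (UMIs per 1000000 UMIs of the same cells) just inside the threshold in library 1 and library 2, against 492 and 612 CPM just outside. Spindle genes summed to 229 and 197 CPM inside, against 105 and 128 CPM outside. At least 10 cycle UMIs were present in 111 members of library 1 and 86 of library 2.

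NK cells were the most numerous class among the members of both libraries. They made up 100 of 221 members in library 1 (45.2%, interval 38.6 to 52.1%) and 93 of 180 in library 2 (51.7%, interval 44.1 to 59.2%). Csf1r cells numbered 67 in library 1 (30.3%, interval 24.3 to 36.8%) and 37 in library 2 (20.6%, interval 14.9 to 27.2%), and these intervals overlap. Cells with both marks numbered 13 and 10 and were kept apart, since a droplet with a cell of each kind would look the same. Neither mark was found in 41 members of library 1 and 40 of library 2. At equal depth the order depended on how classes were called. With every cell thinned to 3000 UMIs and all classes called again, NK cells made up 25.6% and 29.7% of the members and cells with neither mark 48.9% and 60.8%. Lineage was also kept from all UMIs, with only the cycle genes counted after thinning. Cycling cells then numbered 47 and 33 for NK, 33 and 14 for Csf1r, and 16 and 12 for neither mark.

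**Figure D1:**
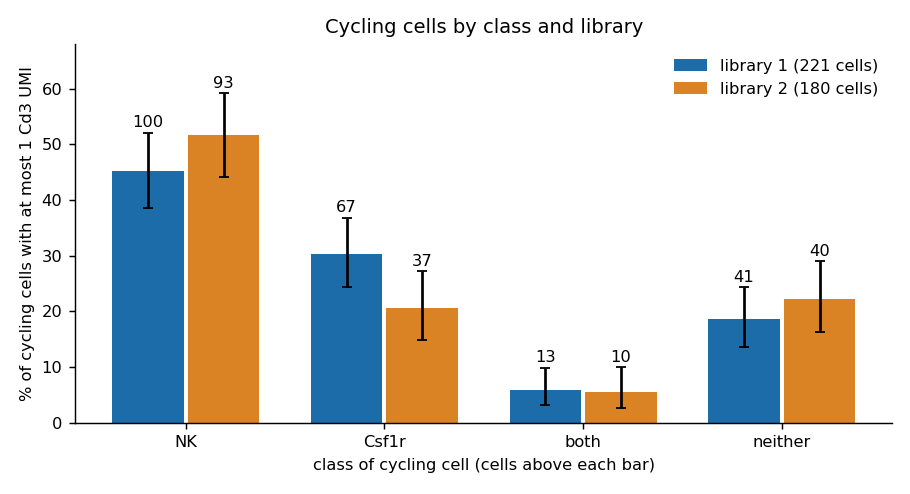
Share of the cycling cells in each class (vertical axis, percent of the 221 cells of library 1 or the 180 cells of library 2), with exact 95% binomial intervals as bars and cell numbers above. NK cells are the largest class in both libraries, at 45.2% and 51.7%.

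NK markers that the rule did not use were found in most of the cycling NK cells, while the absence of T cell transcripts held for some T cell genes only. Klrd1, part of the CD94/NKG2 receptors, was found in 100% of the cycling NK cells of both libraries, perforin (Prf1) in 100% and 98.9%, and Eomes, a transcription factor of NK cells, in 79.0% and 73.1%. Cenpf, a cycle marker that the rule did not use, was found in 57.0% and 41.9% of them. Most cycling T cells (at least 2 Cd3 UMIs) also held Klrd1 (88.7% and 91.3%) and Prf1 (79.1% and 80.1%). The presence of either gene therefore does not separate NK cells from cycling T cells. Eomes was found in fewer cycling T cells, at 22.9% and 23.0%.

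Trbc1, a constant segment of the T cell receptor beta chain, was found in 99.0% of cycling NK cells of library 1 and 100% of library 2, against 38.8% and 5.41% of cycling Csf1r cells. Whether free RNA or doublets gave the Trbc1 of Csf1r cells was not tested. The level of Trbc1 was 611 and 533 CPM in cycling NK cells, against 725 and 739 CPM in NK cells without cycle UMIs and 773 and 662 CPM in cycling T cells (at least 2 Cd3 UMIs). The cells are therefore named by the Cd3 rule and not as free of T cell transcripts. The alpha segment Trac stood at 18.7 and 23.4 CPM in cycling NK cells, against 592 and 606 CPM in cycling T cells.

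Some other T cell genes were near 0 and others were not. Cd28 had 149 and 154 CPM in cycling NK cells, against 178 and 222 CPM in cycling T cells. Trbc2 had 327 and 320 CPM, against 1415 and 1538 CPM. Trdc was higher in cycling NK cells, with 42.5 and 47.4 CPM, against 10.9 and 12.2 CPM. The surface receptor Cd5 had 3 UMIs in all cycling NK cells of library 1 and 0 in library 2, and Themis, a signalling protein of T cells, had 3 and 0, while cycling T cells held 87.0 and 89.9 CPM of Cd5. Cd3 transcripts themselves were at 0 in 54 of 100 cycling NK cells of library 1 and 62 of 93 of library 2. Had the T cell receptor constant genes been added to the Cd3 sum, 74 and 62 members would have been left, with 0 NK cells in either library.

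Macrophage transcripts were present in NK cells, more often in library 1 than in library 2. C1qa, a complement gene made by macrophages, had a UMI in 53.0% of cycling NK cells of library 1 and 18.3% of library 2, against 31.0% and 10.8% of the shallower NK cells without cycle UMIs. At 40.9 and 10.8 CPM in cycling NK cells, against 42.0 and 23.8 CPM in the NK cells without cycle UMIs, it was not higher in cycling cells per UMI. Markers of B cells, erythroid cells, neutrophils and alveolar macrophages reached 3 summed UMIs in no cycling NK cell of either library, which allows a share of up to 3% and 3.23% if a count of 0 is taken to allow 3 cells.

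Against NK cells with none of the cycle UMIs (651 in library 1 and 695 in library 2), cycling NK cells held more transcripts of DNA copying and division. A gene is called past the fold rule when it differed at least 2 times in the same direction in both libraries, with at least 50 CPM on 1 side. Of 3007 genes at that level, 164 (5.45%) were higher and 12 (0.399%) were lower in cycling NK cells. The rule chose these cells by 3 genes of the same contrast, so the counts of cycle genes describe the members and support nothing. Without those 3 genes, the 9 lists for origin licensing, the replication fork, nucleotide synthesis, mitotic kinases, anaphase regulators, the kinetochore, condensin and cohesin, the spindle, and chromatin and tubulin held 140 genes, of which 82 were at the level, 77 were higher and none was lower. Their median log2 ratio was 2.75 in library 1 and 2.68 in library 2, where the median over all genes at the level was -0.02 and -0.01. Cyclins and kinases, counted apart, were higher in 3 of 7 cases, and none of 3 CDK inhibitors was past the rule.

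The genes of S phase came first by role. All 8 measured origin licensing genes were higher, Mcm5 among them with 148 and 191 CPM in cycling NK cells of library 1 and library 2, against 29.5 and 30.5 CPM in the other NK cells (log2 2.32 and 2.64). Pclaf, a protein that binds the sliding clamp PCNA at the fork, had 543 and 489 CPM in cycling NK cells, against 4.89 and 2.90 CPM (log2 6.77 and 7.36). Rrm2, the regulated subunit of ribonucleotide reductase, had 218 and 179 CPM, against 1.96 and 2.21 CPM, and all 7 measured genes of nucleotide synthesis were higher. E2f1, a transcription factor of S phase entry, had 56.5 and 59.4 CPM in cycling NK cells, against 6.68 and 6.98 CPM.

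The medians of the mitotic kinase, anaphase regulator, kinetochore and spindle lists lay above those of the S phase lists in both libraries. The cells compared had, however, been chosen to hold no UMI of 3 mitosis genes. All 12 spindle and cytokinesis genes at the level and all 10 of the centromere and kinetochore were higher. List medians were 5.00 and 4.26 for the spindle in library 1 and library 2, beside 3.73 and 3.60 for nucleotide synthesis. Condensin and cohesin, a list not counted with mitosis here, had medians of 2.15 and 1.67. Cenpf, a kinetochore protein, had 278 and 172 CPM in cycling NK cells, against 2.93 and 1.53 CPM (log2 6.53 and 6.73). Hmmr, which helps to assemble the spindle, had 106 and 80.3 CPM, against 0.815 CPM in library 1 and no UMI in the NK cells without cycle UMIs of library 2. Ccnb2, a mitotic cyclin, had 139 and 114 CPM, against 2.12 and 0.852 CPM. Esco2, an acetyltransferase that locks cohesin onto copied chromosomes, had 98.4 and 52.2 CPM, against 0.163 CPM in library 1 and no UMI in library 2.

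The promoters of these genes are shown because the S phase and mitosis genes differ in the letters around their starts. Each window runs 250 bases before to 50 bases after the gene's start, 5′ to 3′ on the gene's strand, from RefSeq on GRCm38.p6. Capitals mark TTTGAA, the core of the cell cycle homology region of mitotic genes, CCAAT, the box bound by NF-Y, and 4 forms of the E2F site (TTCCCGC or TTGGCGC or TTCGCGC or TTGCCGC), each on either strand. In Mcm5 the reverse of TTGGCGC overlaps another form of the E2F site. The windows are Hmmr at chr11:40733388-40733687, Cenpf at chr1:189688037-189688336 and Ccnb2 at chr9:70421505-70421804, all on the minus strand, and Pclaf at chr9:65890073-65890372 and Mcm5 at chr8:75109259-75109558, both on the plus strand.
Hmmr: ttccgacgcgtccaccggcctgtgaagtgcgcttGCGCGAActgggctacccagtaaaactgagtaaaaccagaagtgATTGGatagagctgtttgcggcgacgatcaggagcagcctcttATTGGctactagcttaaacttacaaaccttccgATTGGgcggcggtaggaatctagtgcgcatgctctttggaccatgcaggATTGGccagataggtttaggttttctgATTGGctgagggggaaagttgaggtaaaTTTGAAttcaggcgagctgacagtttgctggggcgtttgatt
Cenpf: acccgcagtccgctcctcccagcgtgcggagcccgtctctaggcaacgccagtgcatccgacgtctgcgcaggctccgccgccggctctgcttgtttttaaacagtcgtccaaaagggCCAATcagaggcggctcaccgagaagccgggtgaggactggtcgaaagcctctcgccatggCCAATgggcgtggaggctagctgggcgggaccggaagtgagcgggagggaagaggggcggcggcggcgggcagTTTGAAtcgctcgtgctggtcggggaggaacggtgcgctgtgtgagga
Ccnb2: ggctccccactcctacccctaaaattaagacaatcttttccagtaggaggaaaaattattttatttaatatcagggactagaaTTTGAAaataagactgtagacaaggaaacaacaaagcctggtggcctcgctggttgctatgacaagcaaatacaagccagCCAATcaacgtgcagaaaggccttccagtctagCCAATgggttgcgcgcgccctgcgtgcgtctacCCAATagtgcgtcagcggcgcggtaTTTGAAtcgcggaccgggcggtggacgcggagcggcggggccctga
Pclaf: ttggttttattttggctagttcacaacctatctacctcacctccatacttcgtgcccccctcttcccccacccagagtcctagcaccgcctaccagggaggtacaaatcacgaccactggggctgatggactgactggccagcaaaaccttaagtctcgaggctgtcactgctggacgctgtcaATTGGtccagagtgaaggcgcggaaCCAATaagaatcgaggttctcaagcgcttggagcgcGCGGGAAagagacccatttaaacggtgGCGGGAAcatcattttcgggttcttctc
Mcm5: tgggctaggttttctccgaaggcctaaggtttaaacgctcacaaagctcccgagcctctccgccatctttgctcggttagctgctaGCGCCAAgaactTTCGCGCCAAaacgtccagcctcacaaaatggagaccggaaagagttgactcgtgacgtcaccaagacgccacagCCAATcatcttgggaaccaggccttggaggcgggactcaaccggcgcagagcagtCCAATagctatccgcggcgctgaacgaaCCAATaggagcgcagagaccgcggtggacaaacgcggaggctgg

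In the 3 mitosis genes TTTGAA began at base 259 of the Hmmr window, base 253 of Cenpf and base 255 of Ccnb2, just after the start at base 251, and Ccnb2 held it also at base 84. Pclaf and Mcm5 held no TTTGAA but had E2F letters, which Cenpf and Ccnb2 lacked and Hmmr held at base 35. The windows of Ccnb1, Cenpe and Nusap1, not printed here, held no TTTGAA. Over the lists, TTTGAA was present in 34 of 56 mitosis genes with a window (60.7%) and 5 of 41 S phase genes (12.2%), beside 18.1% of all 27025 windows. CCAAT separated the lists less, with 71.4% of the mitosis genes and 61.0% of the S phase genes, beside 37.9% of all windows. E2F letters were in 10 of the mitosis genes (17.9%) and 25 of the S phase genes (61.0%), beside 9.69% of all windows. Of the NK receptor genes, 5 of 14 held TTTGAA (35.7%) and none held E2F letters. These matches describe letters in a window and show no binding.

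NK identity genes were not past the fold rule in cycling NK cells, but most genes were not. Of all genes at the level 5.45% were higher and 0.399% lower, so a count of 0 says little. None of the 16 NK receptor genes at the level was past 2 times in both libraries, and their median log2 ratio was -0.41 in library 1 and -0.54 in library 2. Their highest ratio was 0.14 in library 1 and -0.15 in library 2, so all were below 0 in library 2. Ncr1 itself, used to name the class, had 459 and 453 CPM in cycling NK cells, against 619 and 657 CPM. None of 10 NK transcription factors and none of 12 cytotoxicity genes was past the rule. The transcription factors had medians of -0.29 and -0.41, with highest ratios of 0.05 in library 1 and -0.17 in library 2. Prf1 had 962 and 1387 CPM, against 1314 and 1439 CPM, and Eomes 155 and 138 CPM, against 186 and 190 CPM. Tfrc, the transferrin receptor that brings in iron, was the 1 growth factor receptor list member of 5 past the rule, with 52.8 and 70.1 CPM in cycling NK cells, against 24.6 and 30.5 CPM (log2 1.11 and 1.2).

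**Figure D2:**
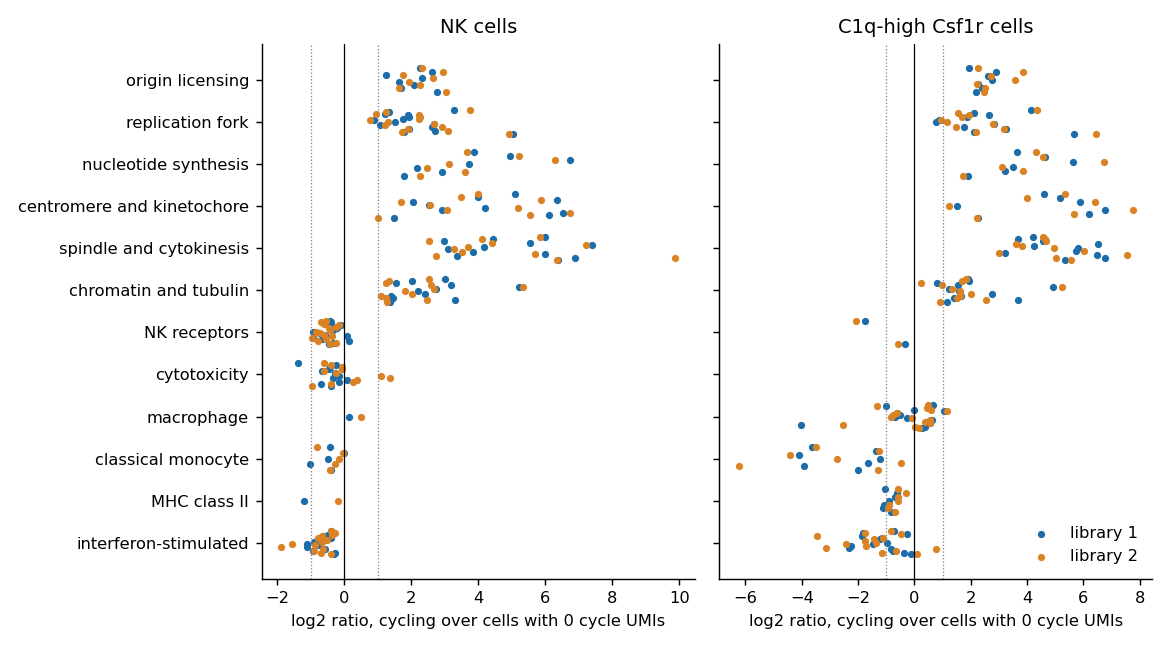
Log2 ratio of cycling cells over cells of the same class with none of the cycle UMIs (horizontal axis), 1 point per gene and library, by gene list, for NK cells (left) and C1q-high Csf1r cells (right). Dotted lines mark 2-fold, and the point at the far right of the NK panel is Hmmr in library 2, which had no UMI in the other NK cells, so its place depends on the pseudocount of 0.5.

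Metabolic genes stayed within 2 times in cycling NK cells. None of 11 glycolysis genes and none of 10 genes of ribosome biogenesis was past the fold rule, with medians of 0.48 and 0.36 in library 1 and 0.60 and 0.63 in library 2. Both lists thus leaned higher by their medians. The counts of 0 say little, since 5.45% of all genes at the level were higher and 0.399% lower. Myc, a transcription factor of cell growth, had 29.5 and 48.0 CPM in cycling NK cells, against 29.5 and 50.3 CPM. Ccnd2, a cyclin of G1, had 231 and 329 CPM, against 419 and 453 CPM, the opposite order to the cyclins of mitosis.

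Among the 12 genes that were lower were the chemokines Ccl5 and Ccl4. Without barcodes over 3 times the median depth 6 genes were lower, and Ccl5, Klf2, Slfn5 and Ypel3 were the ones that both calls shared. Ccl5, a chemokine stored by effector lymphocytes, was the lowest, with 245 CPM in cycling NK cells of library 1 and 79.1 CPM in library 2, against 1499 and 1788 CPM in the other NK cells (log2 -2.61 and -4.49). One cell held 170 of the 473 Ccl5 UMIs of library 1, and without the cell with most UMIs on each side the log2 ratio was -3.22 in library 1 and -4.64 in library 2. At a fixed depth of 3000 UMIs, Ccl5 was found in 12% and 17.2% of cycling NK cells, against 51.8% and 51.6% of the other NK cells. Its level was thus lower both per UMI and per cell at a fixed depth.

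Klf2, a transcription factor that keeps lymphocytes quiescent, had 146 and 120 CPM in cycling NK cells, against 372 and 528 CPM (log2 -1.35 and -2.14), and was found in 25.0% and 22.6% of thinned cycling cells, against 43.9% and 49.5%. Ccl4, a chemokine that attracts monocytes and T cells, had 213 and 317 CPM, against 726 and 805 CPM (log2 -1.76 and -1.34), and without the deep barcodes its log2 ratio was -1.46 and -0.87, which ends the call. Mxd4, an antagonist of Myc, had 45.6 and 41.4 CPM, against 105 and 85.7 CPM, and its ratio of -0.83 in library 2 without deep barcodes ends the call too. Of 14 interferon-stimulated genes at the level, Ifit1 and Ifit3 were past the rule, at -0.87 each in library 1 without deep barcodes, and the list median was -0.59 and -0.66. Slfn5, Nfkbiz, Ypel3 and Gm44292 were the other 4 of the 10 lowest, at log2 ratios between -2.26 and -1.08.

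**Figure D3:**
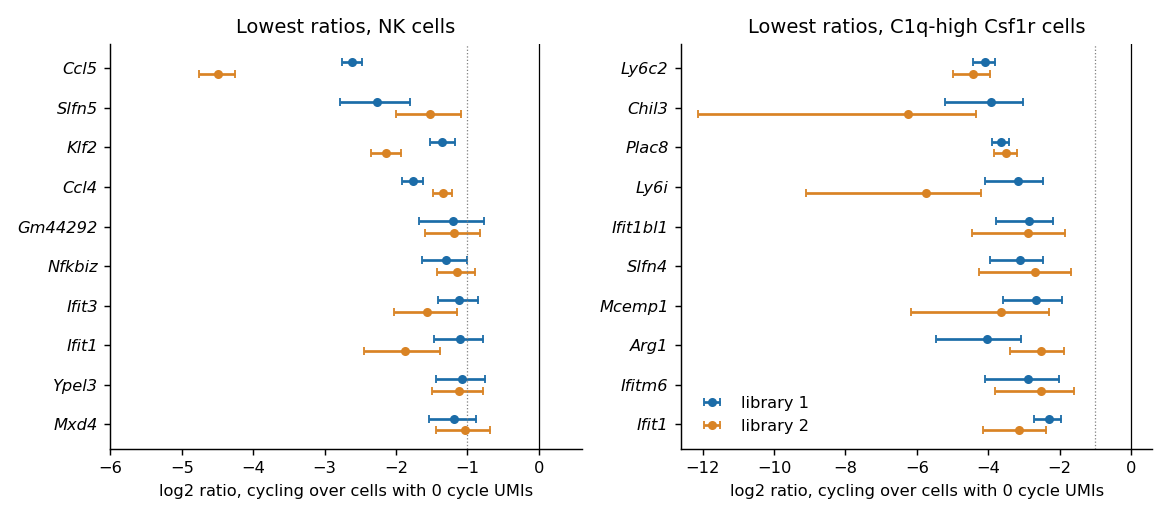
The 10 genes with the lowest log2 ratio of cycling cells over cells of the same class with none of the cycle UMIs (horizontal axis), for NK cells (left) and C1q-high Csf1r cells (right), with exact 95% counting intervals. Genes are ordered by the ratio nearer to 0 of the 2 libraries, by which Ccl5 is the lowest in NK cells and Ly6c2 in C1q-high Csf1r cells. In library 2 Chil3 (-6.24) and Ly6i (-5.74) lie below Ly6c2 (-4.42). All points lie left of the dotted line at 2-fold lower.

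The granzymes Gzmd, Gzme, Gzmf and Gzmg, neighbouring genes of near-identical sequence whose reads may be split between them, were concentrated in a minority of NK cells. Their sum reached 10 UMIs in 24.0% of cycling NK cells of library 1 (interval 16 to 33.6%) and 32.3% of library 2 (interval 22.9 to 42.7%), against 10.4% and 10.6% of the other NK cells. At 3000 UMIs per cell, 23% and 28% of cycling NK cells held at least 3 of these UMIs, against 10.4% and 10.9%. The higher share was thus present at equal depth. Among cycling T cells, 14.5% and 13.8% reached 10 UMIs, and none of the cycling Csf1r cells did. Yet no member of the family was past the fold rule, with Gzmd at 614 and 1713 CPM in cycling NK cells, against 779.5 and 663 CPM (log2 -0.34 and 1.37).

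Library 1 held relatively more mitosis transcripts in its cycling NK cells and library 2 more S phase transcripts. The 50 S phase genes summed to 4798 CPM and the 63 mitosis genes to 5422 CPM in library 1, a ratio of 0.885, and to 5337 and 3706 CPM in library 2, a ratio of 1.44. S phase transcripts exceeded those of mitosis in 60 of 100 cycling NK cells of library 1 (60.0%, interval 49.7 to 69.7%) and 65 of 93 of library 2 (69.9%, interval 59.5 to 79.0%). Those intervals overlap, so the share of cells differed less clearly than the sums. In NK cells without cycle UMIs the share was higher, at 78.6% and 78.3%, and the ratio of sums was 2.40 and 2.39. A majority of cells with more S phase than mitosis transcripts therefore does not by itself mark S phase. Among cycling T cells the ratio was 1.00 in library 1 and 1.02 in library 2.

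In cycling Csf1r cells mitosis genes summed to more than S phase genes in library 1, while the counting intervals of both sums overlapped in library 2. Their S phase genes summed to 3385 and 3586 CPM and their mitosis genes to 4488 and 3736 CPM, ratios of 0.754 and 0.960. S phase exceeded mitosis in 32 of 67 cells of library 1 (47.8%) and 16 of 37 of library 2 (43.2%). In Csf1r cells without cycle UMIs the shares were 66.6% and 69.1%. Between cycling NK and cycling Csf1r cells, 2 of 86 genes of the 9 cycle lists were past the fold rule, Dut and Rpa2 of S phase, both higher in NK cells, beside 298 of 3438 genes (8.67%) higher and 553 (16.1%) lower over all genes. Outside those lists the G1 cyclin Ccnd1 was lower in cycling NK cells, with 18.7 and 7.19 CPM, against 321 and 478 CPM in cycling Csf1r cells, and so was the CDK inhibitor Cdkn1a, with 68.9 and 85.1 CPM, against 299.7 and 334 CPM. Between cycling NK and cycling T cells none of 86 was past the rule, with medians of 0.21 and 0.02, beside 73 of 3193 genes (2.29%) higher and 176 (5.51%) lower over all genes, and Ccnd1 was again lower, against 74.3 and 91.8 CPM in cycling T cells.

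**Figure D4:**
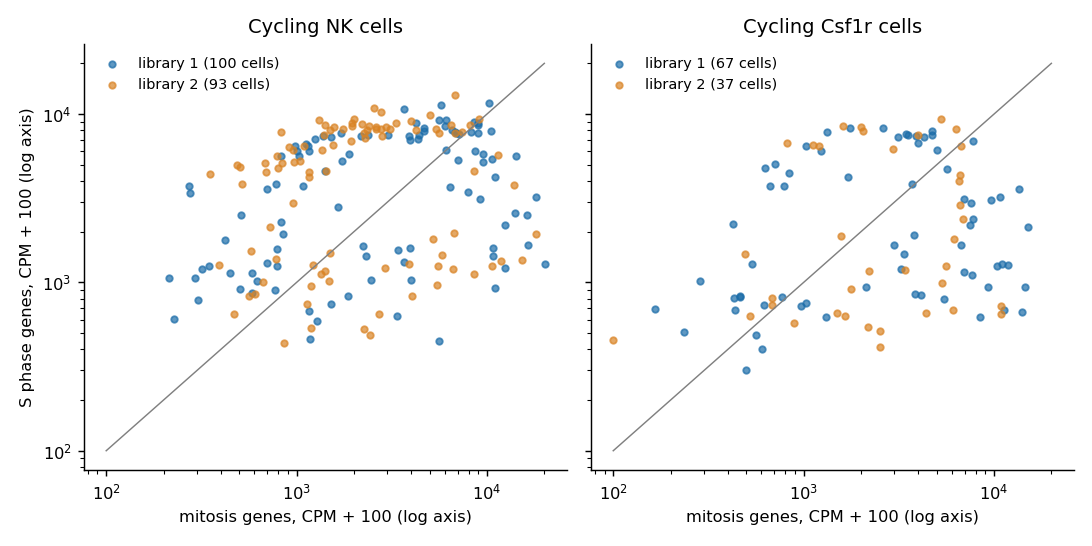
Summed S phase genes (vertical axis) against summed mitosis genes (horizontal axis) in single cycling NK cells (left) and cycling Csf1r cells (right), in CPM plus 100 on log axes, with a line of equal levels. Many NK cells form a band at the top, and 60 of 100 cells of library 1 and 65 of 93 of library 2 lie above the line. In NK cells without cycle UMIs, not shown, 78.6% and 78.3% had more S phase than mitosis transcripts.

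Cycling NK cells were higher than cycling T cells in 10 of 18 NK receptor genes at the level, Ncr1 and Klrb1c of the rule among them, and lower in 2, and they were higher in 6 of 12 cytotoxicity genes. Of 11 NK transcription factors 3 were higher and 3 lower, and of 10 T cell genes 8 were lower, the Cd3 genes of the rule among them. Klra8, an activating receptor of the Ly49 family, had 287 and 231 CPM in cycling NK cells, against 22.8 and 19.6 CPM in cycling T cells (log2 3.66 and 3.56). The Ly49 genes Klra4, Klra7 and Klra9 and the receptor Klrb1f were also among the 10 highest, and Ly49 genes are close copies whose reads may be split. Gzma had 2967 and 4525 CPM in cycling NK cells, against 343 and 271 CPM. Car2, a carbonic anhydrase, had 545 and 508 CPM, against 55.3 and 39.3 CPM. Some cycling T cells also held macrophage transcripts, with 10 or more C1q UMIs in 14.5% and 18.2% of them, so the low ratios of Csf1r and Mrc1 (0 UMIs in cycling NK cells) are not read here.

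Against cycling Csf1r cells, cycling NK cells were lower in 13 of 14 macrophage genes at the level. The exception was Spp1, osteopontin, with 2527 and 2963 CPM in cycling NK cells, against 65.4 and 61.2 CPM in cycling Csf1r cells, beside 2256 and 2092 CPM in the other NK cells. Granzyme C (Gzmc) had 6203 and 7725 CPM in cycling NK cells, against 40.2 and 15.6 CPM in cycling Csf1r cells. Xcl1, a chemokine that attracts cDC1 dendritic cells, had 1192 and 1295 CPM, against 6.47 and 1.42 CPM.

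Cycling Csf1r cells were mostly macrophages by their markers. C1qa was found in 95.5% of them in library 1 and 81.1% in library 2. At least 10 summed UMIs of C1qa, C1qb and C1qc were present in 88.1% and 70.3%, against 32.3% and 28.3% of Csf1r cells without cycle UMIs. Mrc1, the mannose receptor, was found in 76.1% and 75.7%, against 22.7% and 24.1%. A set of 7 markers of alveolar macrophages reached 3 UMIs in none of them, and 7 and 6 of the 7 genes were at 0. Chil3, outside that set but in a longer alveolar macrophage list of 11 genes, had 83 and 1 UMIs, with 74 in 1 cell of library 1.

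Compared with Csf1r cells without cycle UMIs (1515 and 1015), of 3313 genes 205 (6.19%) were higher and 180 (5.43%) lower in cycling Csf1r cells. Of the genes called higher, 114 were shared with cycling NK cells, or 69.5% of the NK list and 55.6% of the Csf1r list, and of those called lower 6 were shared, or 50% and 3.33%. Of 10 classical monocyte genes 9 were lower. Among them was Vcan, a proteoglycan of monocytes, with 10.8 and 5.69 CPM in cycling Csf1r cells, against 162 and 255 CPM. The neutrophil and monocyte gene S100a9 had 1 and 3 UMIs in cycling Csf1r cells, against 94.8 and 387 CPM in Csf1r cells without cycle UMIs. Since the sides differ in their share of C1q-positive cells, a narrower comparison was added after the data were seen.

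It kept Csf1r cells with at least 10 C1q UMIs, 59 cycling cells in library 1 and 26 in library 2, against 489 and 287 with no cycle UMI. Of 3227 genes 153 (4.74%) were higher and 93 (2.88%) lower in the cycling cells, and 98 were higher without deep barcodes. Their median depth was also higher than that of the other C1q-high cells, and single-cell shares are given at 3000 UMIs. Of 65 cycle genes at the level 59 were higher and none lower, with medians of 2.84 and 2.80. The genes called higher shared with cycling NK cells numbered 102, or 62.2% of the NK list and 66.7% of the C1q-high list, those called lower 4, or 33.3% and 4.3%, and no gene was called in opposite directions. The cycle genes are again the contrast of the rule.

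Monocyte genes were lower in cycling C1q-high cells too. The cut did not make the sides equal, as the median C1q sum before thinning was 358 and 346.5 UMIs in cycling cells, against 103 and 107 in the others. Ly6c2, which marks inflammatory monocytes, had 72.3 and 69.5 CPM in cycling C1q-high cells, against 1244 and 1510 CPM in the others (log2 -4.10 and -4.42). At equal depth it was found in 13.6% and 19.2% of cycling cells, against 58.8% and 62.1%. Plac8, a gene of immature myeloid cells, had 127 and 173 CPM, against 1587 and 1958 CPM (log2 -3.64 and -3.49), and was found in 18.6% and 15.4% of thinned cycling cells, against 65.9% and 67.0%. Ccr2, the chemokine receptor that brings monocytes out of the marrow, had 185 and 367 CPM, against 739 and 912 CPM (log2 -2.00 and -1.31). In all, 6 of 7 classical monocyte genes at the level were lower and the median ratio was -2.00 and -2.74.

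Macrophage genes differed less. Mrc1 was the 1 of 15 that was higher, with 510 and 613 CPM in cycling C1q-high cells, against 247 and 278 CPM (log2 1.05 and 1.14), and was found in 52.5% and 61.5% of thinned cells, against 27.9% and 35.8%. Without the cell with most UMIs on each side its ratio in library 2 was 0.84. C1qa itself had 7475 and 6870 CPM, against 5079 and 4686 CPM, and was not past 2 times. Cadm1, an adhesion molecule that also marks cDC1 cells, was the 1 of 5 dendritic cell genes that was higher, with 88.7 and 92.7 CPM, against 33.0 and 35.2 CPM.

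Arg1, arginase, and Spp1 were lower per UMI. Arg1 had 5.75 and 33.7 CPM in cycling C1q-high cells, against 102 and 201 CPM, and at equal depth it was found in 3.39% and 11.5% of cycling cells, against 6.24% and 16.1%. Spp1 had 69.0 and 54.8 CPM, against 139 and 139.9 CPM. Yet Spp1 was found in 55.9% and 42.3% of cycling cells before thinning, against 31.7% and 29.97%, and in 18.6% and 11.5% at equal depth, against 13.7% and 16.1%.

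Interferon-stimulated genes were lower in cycling C1q-high cells. Of 15 at the level 8 were past the rule, with list medians of -1.17 and -1.35. Isg15, a ubiquitin-like protein, had 729 and 499 CPM in cycling C1q-high cells, against 1873 and 1679 CPM (log2 -1.36 and -1.75). Rsad2, the antiviral protein viperin, had 154 and 46.3 CPM, against 567 and 525 CPM, with 80 of its 187 UMIs in library 1 in 1 cell. Ifit1 had 50.9 and 25.3 CPM, against 255 and 231 CPM. None of 7 MHC class II genes was past the rule, with medians of -0.89 and -0.59. H2-Aa, a chain of the class II protein, had 2698 and 3723 CPM, against 5650 and 6947 CPM (log2 -1.07 and -0.90). Glycolysis genes stayed within 2 times in 15 of 16 cases, the exception being Vegfa, a vessel growth factor kept in that list, with 32.9 and 37.9 CPM, against 72.1 and 122 CPM.

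Members with neither mark were several small populations. Cells with at least 10 UMIs of Cpa3, Ms4a2, Fcer1a and Gata2, genes of mast cells, numbered 10 in library 1 and 11 in library 2. All of them held Cpa3 and the IgE receptor chain Fcer1a, which are part of the cut. Outside it, all held the receptor Kit and the proteases Mcpt4, Cma1, Tpsab1 and Tpsb2, whereas Mcpt8, a basophil protease, was found in 1 and 2 cells. Cma1, mast cell chymase, stood at 57000 and 54683 CPM in them, against 63334 and 57853 CPM in mast cells without cycle UMIs. Cenpf was found in 8 of 10 and 9 of 11, so a cycle gene outside the rule was present in most.

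Dendritic cells of the cDC1 type, with at least 3 UMIs of Xcr1 and Clec9a, numbered 13 and 9 among the members, of which 10 and 7 had neither mark and the rest had Csf1r. Clec9a, a receptor for dead cells and part of the cut, was found in 13 of 13 and 8 of 9. Outside the cut, Flt3, the dendritic growth factor receptor, was found in 12 of 13 and 9 of 9. Irf8, their defining transcription factor, stood at 2099 and 1989 CPM in cycling cDC1 cells of library 1 and library 2. Of the 21 and 22 remaining cells with neither mark, 1 and 2 held B cell genes, 3 and 2 held Flt3 or Cd209a, 2 and 3 were C1q-high, 8 and 7 held other NK genes, and 10 and 11 held none of these, with 2 and 3 cells in more than 1 of these sets. The last had a median of 7296.5 UMIs in library 1 and 1101 in library 2, so those of library 2 were shallow.

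The share of a class that cycled differed among classes. Among NK cells it was 9.63% in library 1 (interval 7.91 to 11.6%) and 9.38% in library 2 (interval 7.64 to 11.4%), and at 3000 UMIs per cell 4.63% and 3.44%. C1q-high Csf1r cells cycled in 8.98% and 6.91%, or 4.48% and 2.14% after thinning. All Csf1r cells cycled in 3.59% and 3.1%, or 1.83% and 1.22% after thinning. Cd3 cells cycled in 17.2% and 11.8%, or 8.68% and 5.73% after thinning. The smaller populations stood higher than NK cells before thinning, with 10 of 77 and 11 of 76 mast cells and 13 of 48 and 9 of 19 cDC1 cells. After thinning the mast cell share was 12.3% and 10.4%, and the cDC1 share 17.0% and 11.1%, the last from 2 of 18 cells. Neutrophils gave 0 of 88 and 1 of 159.

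Between the libraries the cycling NK cells differed in few genes. Of 3135 genes at 50 CPM, 23 (0.734%) were at least 2 times higher in library 1 and 21 (0.67%) lower, with intervals that exclude 0, and 41 were higher without deep barcodes and 12 without NK barcodes holding 3 or more C1q UMIs. Among NK cells without cycle UMIs 13 of 2955 were higher (0.44%) and 10 lower (0.338%). The S-phase histone Hist1h2ap had 568 UMIs in library 1 and 53 in library 2 (log2 3.20), and H2ac8, another histone gene, had 710 and 158 (log2 1.95). Histone genes are near-identical copies and most of their transcripts lack a poly(A) tail, so these values may depend on how they were captured and counted. The ribosomal gene Rpl35 had 879 CPM in library 1 and 285 CPM in library 2, and its ratio was also 1.69 in NK cells without cycle UMIs beside 1.63 here.

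Several of the lowest ratios came from 1 cell of library 2. Ifng, interferon gamma, had 180 UMIs in library 1 and 1092 in library 2, of which 906 were in 1 cell. Its log2 ratio was -2.81, and -0.40 without the cell with most UMIs in each library. The chemokine Ccl1 had 2 UMIs in library 1 and 263 in library 2, with 243 in 1 cell. Gzmg and Crtam, a surface receptor of activated lymphocytes, went to -0.11 and -0.57 without such cells. Ccl3 stayed past 2 times at -1.62, and so did Ccl1 at -4.01 (interval -9.93 to -1.91). Yet Ccl1 was found in only 2 cells of each library, so its remaining UMIs in library 2 came from a single other cell. The interval leaves out that spread between cells. Ccl3 was found in 14 of 100 cells of library 1 and 14 of 93 of library 2.

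**Figure D5:**
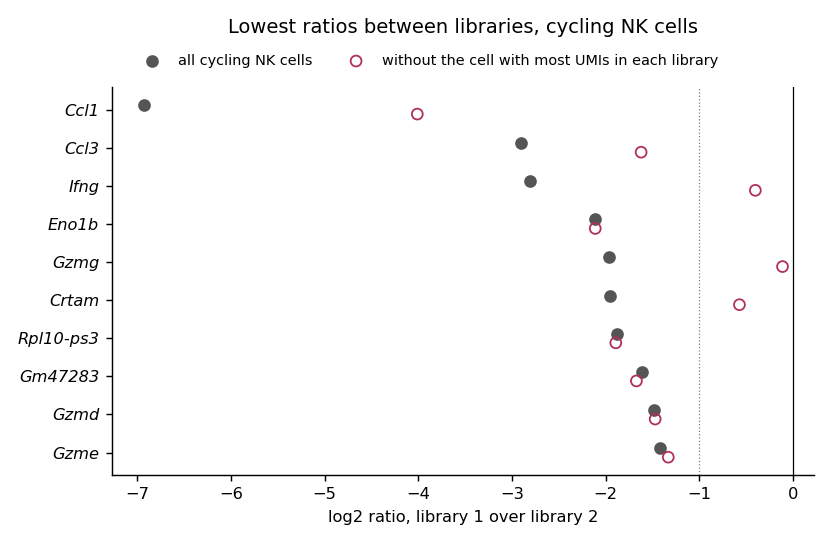
Log2 ratio of library 1 over library 2 in cycling NK cells (horizontal axis) for the 10 genes with the lowest ratios, over all cells (filled) and without the cell with most UMIs of that gene in each library (open). Ifng, Gzmg and Crtam cross the dotted line at 2-fold lower, while Gzmd and Gzme stay at -1.47 and -1.33.

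Gzmd and Gzme were lower in library 1 with or without such cells. Gzmd had 614 CPM in library 1 and 1713 CPM in library 2 (log2 -1.48), while in NK cells without cycle UMIs the ratio was 0.23. The difference of these ratios was not tested. Of 14 cytotoxicity genes 13 had intervals below 0 and 3 were past 2 times, with a median of -0.56, where 15.7% of all 3135 genes had intervals below 0. In NK cells without cycle UMIs 10 of 13 cytotoxicity genes also had intervals below 0, with a median of -0.22 and none past 2 times. Of 16 spindle genes 14 had intervals above 0 and 3 were past 2 times, with a median of 0.65, while 4 of 8 origin licensing genes lay below 0, and 11.6% of all genes had intervals above 0. Counting intervals leave out the spread between cells, which the values without 1 cell show to be large. Eno1b, a close copy of the glycolysis gene Eno1, had 23 and 87 UMIs, and reads of such copies cannot be told apart with certainty.

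Cycling Csf1r cells differed between the libraries in more genes. Of 3423 genes 27 (0.789%) were higher and 71 (2.07%) lower in library 1, and 74 were higher without deep barcodes. Among Csf1r cells without cycle UMIs 9 of 3136 were higher (0.287%) and 16 lower (0.51%). All 10 MHC class II genes had intervals below 0, and 3 were past 2 times, with a median of -0.79, where 15% of all genes had intervals below 0. In C1q-high cycling cells 36 of 3480 genes were higher (1.03%) and 55 lower (1.58%) in library 1, beside 10 of 3114 (0.321%) and 20 (0.642%) in C1q-high cells without cycle UMIs. The MHC class II median in cycling C1q-high cells was -0.44, with 6 of 7 intervals below 0 and none past 2 times. In cells without cycle UMIs all 7 at the level had intervals below 0, with medians of -0.20 in Csf1r cells and -0.23 in C1q-high cells. The share of C1q-high cells among cycling Csf1r cells, 88.1% in library 1 and 70.3% in library 2, moves with the values of those cycling cells, and its part in them was not tested. H2-Aa had 4527 UMIs in 67 cells of library 1 and 4062 in 37 cells of library 2.

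The interferon-induced membrane protein Ifitm1 had 263 UMIs in cycling Csf1r cells of library 1 and 1163 in library 2 (log2 -3.13, and -3.49 without the top cells). Cd209a, a dendritic cell lectin, had 0 and 44 UMIs, 43 of them in 1 cell, and Il10 4 and 50 UMIs, 40 of them in 1 cell. Chil3 had 83 and 1, with 74 in 1 cell of library 1. The chemokine Ccl12 was higher in library 1, with 571 and 185 CPM (log2 1.62), found in 43 of 67 and 19 of 37 cells.

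The targeted genes were sparse in the members. Siah1a had 18 UMIs in cycling NK cells of library 1 and 13 in library 2, or 9.33 and 7.79 CPM, and Siah2 had 44 and 34, or 22.8 and 20.4 CPM. In cycling Csf1r cells Siah1a had 3 and 8 UMIs and Siah2 8 and 21. The labels used here do not name the deleted exons, and transcript ends can remain after a deletion, so these values assign no genotype and check no label.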

How the data were processed

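Droplet RNA sequencing of sorted CD45+ lung cells was deposited by the authors as 1 pooled matrix of UMI counts per gene and barcode, not normalised, for which the file header and the submitters' processing notes name Cell Ranger 6.1.2, and the notes mm10. The gene annotation and any read subsampling on joining are not given in the sources used here. No label ties a barcode suffix to a sample or says that samples came from separate animals.

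Barcodes were kept from 500 genes upward if mitochondrial UMIs did not exceed 10%. The members, gene lists and rules were chosen with earlier results of these data known, and the C1q-high, mast cell and cDC1 cutoffs and values without 1 cell were added after the data were seen. UMIs were summed per class and library, and log2 ratios used a pseudocount of 0.5 UMI with exact conditional binomial intervals. Shares have exact Clopper-Pearson intervals. Comparisons were described and not tested. Named genes were list members and the 10 highest and 10 lowest ratios at 50 CPM, while genes of mast and cDC1 cells outside the lists were named after their values were seen. Thinning drew 3000 UMIs per cell and left out shallower cells, 331 and 295 of those with at most 1 Cd3 UMI. No doublet caller was run. In simulated counts for the comparison of cycling NK cells with other NK cells, over 2778 genes, 100 of 100 genes altered 4 times were recovered and 0 of 2578 unaltered genes were called. These counts were drawn with counting error only, from a profile shared by both libraries, and leave out the spread between cells. They therefore do not show how often the rule errs in the deposited counts. Python 3.11.15, numpy 2.4.6, scipy 1.17.1, pandas 2.3.3 and matplotlib 3.10.9 were used. Alternatives were another cycle threshold, T cell receptor genes in the Cd3 sum, depth limits, filters, level floors and pseudocounts. The number of per-sample columns left unused was 0.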

Additional observations from a re-analysis of the deposited data

How the results depend on the processing

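Limits come first from design: with 1 library a kind, there was no replicate to leave out and no value has a replicate check. No paired analysis was possible because each kind of sample has 1 library. Sparse genes at under 50 CPM were not described by ratio, and counting intervals are narrower than the spread between cells. Of 194 recomputed values of single genes, 193 were called the same, 1 was weaker and none changed direction. Those values do not stand for all called genes. Without deep barcodes, only Ccl5, Klf2, Slfn5 and Ypel3 of the 12 genes lower in cycling NK cells kept the call. Of 140 recomputed shares and counts, 87 were called the same and 53 moved. Shares and counts were not called by direction, so no reversal could be seen among them.

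Of the shares, the members made up 1.83% of library 1 and 2.18% of library 2 at 5 or more cycle UMIs, 0.917% and 1.01% with T cell receptor genes in the Cd3 sum, 2.33% and 2.33% without barcodes over 3 times the median depth, and 1.77% and 1.31% after thinning. With T cell receptor genes in the sum, NK cells were 0% of the members in both libraries, Csf1r cells 62.2% and 51.6%, and cells with neither mark 37.8% and 48.4%, so the NK comparisons gave no value under that setting. After thinning, with all classes called again, NK cells were 25.6% and 29.7%, Csf1r cells 8.11% in library 2, and cells with neither mark 48.9% and 60.8%.

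Of the counts of genes past 2 times, those over the libraries in Csf1r cells went to 53 higher at 5 cycle UMIs and 74 higher without deep barcodes. Without deep barcodes 6 genes were lower in cycling NK cells, 98 were higher in cycling C1q-high cells and 41 were higher in library 1 in NK cells, and Ccl4 in library 2 was at a log2 ratio of -0.87. Without NK barcodes holding 3 or more C1q UMIs, an alternative added after the data were seen, 12 were higher in library 1. A floor of 10 CPM, which brings in more genes, gave 423 higher and 53 lower for cycling NK cells, 632 and 322 for cycling Csf1r cells, 449 and 167 for C1q-high cells, 696 and 1223 for NK over Csf1r cells, 186 and 546 for NK over T cells, and over the libraries 107 and 136 in NK and 160 and 245 in Csf1r cells. No floor gave, in the same order, 998 and 303, 2843 and 551, 1312 and 334, 1594 and 2103, 972 and 1462, 160 and 218, and 173 and 288. Apart from the floors, the cause of these moves was not tested.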

Other observations

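Lyz2, lysozyme, a gene usually abundant in macrophages, was sparse in C1q-high Csf1r cells of both libraries. It had 18.1 CPM in cycling cells of library 1 and 12.6 CPM in library 2, against 20.0 and 21.5 CPM in C1q-high cells without cycle UMIs. Retnla, a gene of alternatively activated macrophages, had 0 UMIs in cycling C1q-high cells, against 2819 UMIs in 6 of 489 other C1q-high cells of library 1, of which 2205 were in 1 cell, and 0 UMIs in the 287 of library 2. The zero in 59 cycling cells allows a share of up to 5.08% of cells with a Retnla UMI, if a count of 0 is taken to allow 3 cells.

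Siah1a and Siah2 differed between the libraries in Csf1r cells without cycle UMIs too. Siah1a had 45 UMIs in library 1 and 129 in library 2, or 3.1 and 13.2 CPM, and Siah2 had 179 and 310, or 12.3 and 31.6 CPM.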
